A study of Mus musculus with 8 samples.

Results

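The killer-cell lectin-like receptors are C-type lectin-like membrane proteins with which natural killer (NK) cells and some T cells read MHC class I and related molecules on other cells. Inhibitory members hold the cell back when they meet their ligand, and activating members pass their signal through small adaptor proteins such as Tyrobp (DAP12) and Hcst (DAP10). Many members are switched on in only some NK cells, so that neighbouring cells carry different sets of receptors. The family was taken here as all genes whose symbol starts with Klr, which gave 26 genes of the 32285 in the count tables. All 26 lie on mouse chromosome 6 in the GENCODE vM21 annotation of GRCm38, and 23 of them, from Klrb1a to Klra1, lie between positions 128609227 and 130386874.

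Single-cell RNA sequencing had been done on CD45.2+ immune cells sorted from the brains of C57BL/6J mice (WT) and of App NL-G-F mice, which carry knocked-in mutations of the amyloid precursor protein gene and were used as a model of amyloid pathology. There were 8 libraries, 1 for each genotype kept on plain water as control, given colitis (acute or chronic), or made allergic to food, and all mice were labelled as 16 weeks old. Colitis was induced with 2% dextran sulphate sodium in the drinking water, in a single course (acute) or in repeated cycles separated by water (chronic), and food allergy was induced with ovalbumin. Cells of several mice were marked with hashtag antibodies and pooled in each library, but the labels do not tie a hashtag to a mouse, so every condition is 1 sample and the p-values below measure only the spread between libraries.

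Cells were called in the unfiltered matrices, which left 50106 cells, between 4875 and 7199 per library, with 25619903 to 54618574 UMIs per library (unique molecular identifiers, each standing for 1 captured transcript). Pairs of libraries shared 34 to 72 cell barcodes. Cells were placed in gates by the transcripts they carried: the NK gate held cells with Ncr1 and without Cd3e, and the other gates were CD8 T, CD4 T, gamma-delta T, ILC2 (group 2 innate lymphoid cells), myeloid and B cells. B cells served as the cell type that should lack these receptors. Levels are given as UMIs per 1000000 UMIs of the gate (CPM), a measure of transcripts captured at their 5′ end, so that genes can be set side by side without a length correction. In the NK gate 5 of 6 NK markers that the gate did not use, Xcl1, Tbx21, Prf1, Gzma and Eomes, had a UMI in 33.3 to 73.3% of cells, and Itga2 in 8.08%, while in B cells each of the 6 had one in under 1% of cells. Of the NK gate cells, 14.1% carried Cd3d or Cd3g, 6.74% a B cell marker and 9.70% at least 3 myeloid markers, the last ranging from 5.57% in the App control library to 22.0% in the WT food allergy library.

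The 11 Klra genes encode the Ly49 receptors and are close relatives, in sequence as well as in position. The RefSeq promoter table held 23 of the 26 members, and 9 of its 11 Klra promoters carried the stretch AGGAGGNGC on either strand, which was found in 4.63% of all 32851 promoters of the same length. The stretch was picked after the sequences were seen. It is shown for 3 members that were highest in NK cells (Klra4, Klra8 and Klra7) and for 2 that were highest in myeloid cells (Klra17 and Klra2). These members were alike around the stretch but differed in the cells that carried them. Each line gives 50 bases upstream of the listed start, 5′ to 3′ on the minus strand of GRCm38.p6, with the stretch in capitals.
Klra4: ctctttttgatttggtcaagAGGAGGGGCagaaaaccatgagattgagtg
Klra8: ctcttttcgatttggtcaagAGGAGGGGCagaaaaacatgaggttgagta
Klra7: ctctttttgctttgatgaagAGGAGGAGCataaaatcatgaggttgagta
Klra17: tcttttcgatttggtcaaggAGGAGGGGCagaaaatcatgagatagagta
Klra2: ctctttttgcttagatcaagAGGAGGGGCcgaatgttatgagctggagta
In the order printed, the regions were chr6:130067297-130067346, chr6:130129925-130129974, chr6:130233358-130233407, chr6:129876692-129876741 and chr6:131247380-131247429. The lines were set on the stretch and compared position by position, without gaps. Of the 50 positions, 46 were identical to Klra4 in Klra8, 42 in Klra7, 39 in Klra2 and 35 in Klra17. Klra17 has an extra g before the stretch, which shifts its left flank, so its count understates its likeness to Klra4. The bases of the stretch match by the way the lines were chosen. A match around the stretch describes the sequence and says nothing of which factor binds there. Over the 250 bases before the listed start, at fixed positions and without gaps, no pair of members matched at more than 87.

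Likeness between members also limits which gene a read can be given to. Of all 60-base stretches in the annotated transcripts of Klrc1, 32.5% also occurred in another member, nearly all in Klrc2, and the share was 29.6% for Klrc3, 25.0% for Klra10, 18.9% for Klra9, 14.2% for Klrc2 and 12.4% for Klra3. Values of these genes are therefore less certain than those of Klrd1, Klrk1, Klrg1, Klre1, Klrb1f, Klra2, Klra17 and Klra7, which shared none.

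The family's transcripts were concentrated in NK cells. The NK gate, with 2907 cells or 5.8% of all cells, held 49.5% of the 120052 Klr UMIs, and 22 of the 26 genes had their highest pooled CPM there. The 3 genes highest in the myeloid gate were Klra2, Klra17 and Klrg2, and the 1 highest in ILC2 was Klrg1. At least 10 CPM in some gate was reached by 20 genes, while Klra5, Klra6, Klra10, Klrb1, Klri1 and Klrg2 stayed between 0.789 and 9.92 CPM in their highest gate. A further 20.7% of the Klr UMIs lay in cells outside every gate, among them 350 cells with at least 2 NK markers and no Cd3e, which had 4214 Klr CPM, close to the NK gate itself.

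The summed Klr level per library was 3869 to 5309 CPM in NK cells (median 4668, 8 libraries), 533 to 753 CPM in CD8 T cells (median 614) and 382 to 966 CPM in gamma-delta T cells (median 556). It was 133 to 315 CPM in CD4 T cells, 103 to 183 CPM in ILC2 and 82.2 to 184 CPM in myeloid cells, with medians of 238, 117 and 126 CPM. B cells had 10.1 to 33.4 CPM. The NK gate lay above every other gate in every library and B cells lay below them all, whereas CD8 T and gamma-delta T cells overlapped, as did ILC2 and myeloid cells. Any Klr UMI was seen in 98.7% of NK cells, 58.1% of CD8 T, 44.8% of myeloid, 36.8% of gamma-delta T, 22.4% of CD4 T and 22.2% of ILC2, against 2.94% of B cells. The myeloid share stood above that of gamma-delta T cells although the summed level was lower, in cells with a median of 7744 UMIs. With every cell thinned to 1500 UMIs, which left out 144 NK, 214 CD8 T, 1183 myeloid, 25 gamma-delta T, 111 CD4 T, 118 ILC2 and 538 B cells, the shares in the same order were 97.3, 42.8, 16.7, 25.1, 13.8, 13.0 and 1.76%, so that myeloid cells then lay below gamma-delta T cells. Median depths before thinning were 3391 UMIs in NK cells and 2388.5 in B cells. Intervals and limits given here cover counting error only.

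**Figure D1:**
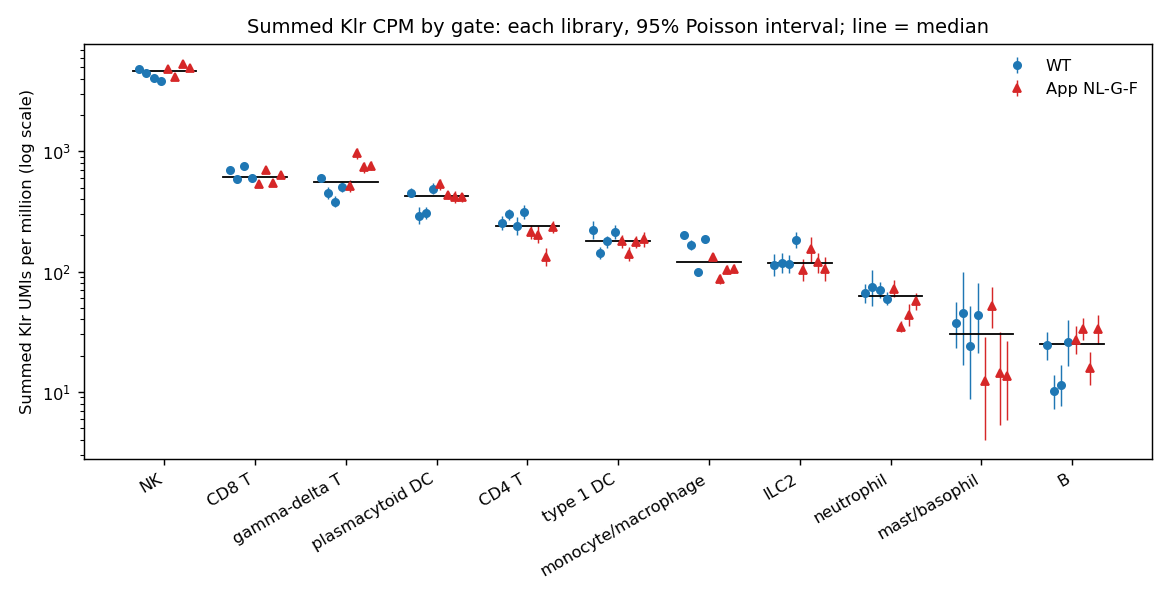
Summed Klr level (CPM, log axis) in each gate, with the myeloid gate shown by its named cell types only. Myeloid cells of no named type are left out. Each library is 1 point (circles WT, triangles App NL-G-F), with exact 95% Poisson intervals and a line at the median. NK cells sit between 3869 and 5309 CPM in all libraries and B cells between 10.1 and 33.4 CPM.

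**Figure D2:**
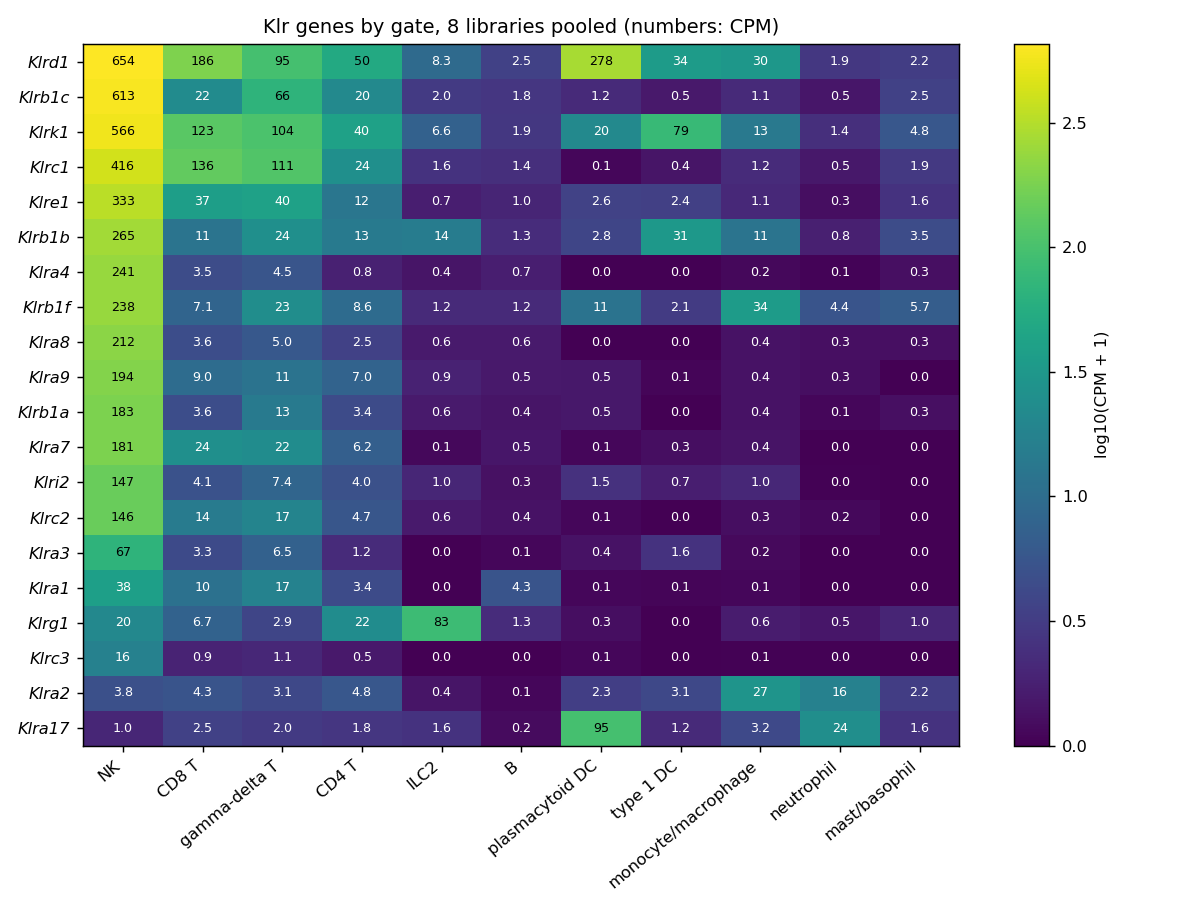
Level of the 20 Klr genes that reach 10 CPM in a gate (down the side), pooled over the 8 libraries. The gates are along the bottom, with the myeloid gate shown by its named cell types only. Colours show log10(CPM + 1) and the printed values are CPM. NK cells carry nearly the whole family, while Klrg1 stands out in ILC2 at 83.5 CPM and Klra17 and Klra2 in parts of the myeloid gate.

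In NK cells 14 members passed 100 CPM, and the 4 highest, Klrd1, Klrb1c, Klrk1 and Klrc1, made up 49.2% of the family's UMIs. Klrd1 (CD94), the partner chain of the NKG2 receptors for the class I-like molecule Qa-1, was at 545 to 734 CPM per library with a median of 642. Its inhibitory partner Klrc1 (NKG2A) was at 311 to 503 CPM, median 422. The activating partner Klrc2 (NKG2C) was lower, at 126 to 211 CPM with a median of 133, and Klrc3 (NKG2E) was at 8.43 to 26.4 CPM. The inhibitory chain was thus above the activating chain in every library, with no overlap. Klrk1 (NKG2D), an activating receptor for stress-induced ligands, was at 438 to 668 CPM, median 591.

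Of the NKR-P1 receptors, whose ligands belong to the Clec2 family, activating Klrb1c led at 484 to 754 CPM per library (median 613). Klrb1b, an inhibitory receptor for Clec2d, was at 178 to 329 CPM, Klrb1f at 196 to 273 CPM and Klrb1a at 147 to 212 CPM. These 3 overlapped with each other and lay below Klrb1c in every library. Klre1, which pairs with either Klri1 or Klri2, was at 269 to 417 CPM. Of its partners, the activating Klri2 was at 110 to 178 CPM and the inhibitory Klri1 stayed under the level of 10 CPM, at 8.0 CPM pooled.

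The Klra receptors together made up 21.0% of the Klr UMIs of NK cells. The activating members Klra4 (Ly49D) and Klra8 (Ly49H, which binds the m157 protein of mouse cytomegalovirus) were at 161 to 328 and 151 to 276 CPM. The inhibitory members Klra9 (Ly49I) and Klra7 (Ly49G) had similar levels, at 133 to 236 and 135 to 219 CPM, so the 4 ranges overlapped. Klra3 (Ly49C) at 44.1 to 89.4 CPM and Klra1 (Ly49A) at 18.3 to 52.2 CPM were lower. Klrg1, an inhibitory receptor for cadherins, was at only 15.5 to 30.2 CPM.

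A UMI of a given member was seen in only some of the NK cells. Klrb1c, Klrk1 and Klrd1 were seen in 86.3, 86.0 and 83.4% of them, or 63.8, 62.4 and 62.1% after thinning. Klrc1 was seen in 50.2% (38.2% thinned), Klra8 in 29.1% (19.7%) and Klra4 in 23% (17.6%), against 0.1 to 0.5% of B cells. After thinning, an NK cell had UMIs of 5.0 Klr genes on average and of 12 at most, and 47.2% of the cells had none of a Klra gene. Unthinned, the average was 7.5 genes and 37.9% lacked Klra UMIs, so these figures still depend on depth.

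Klra4 and Klra8, both activating, were found in the same cell more often than their separate frequencies within each library would give. Both were seen in 481 NK cells, against 202 if they were independent, a ratio of 2.39, and the ratios for Klra4 with Klra7 and Klra8 with Klra7 were 2.30 and 2.16. The reverse held for Klrb1b and Klra4, seen together in 139 cells against 352, a ratio of 0.40, and Klrc1 with Klra4 gave 0.60. Among cells of the gate with Gzma and without Gzmc, a subset described next, the ratio for Klra4 with Klra8 was 1.26, for Klrb1b with Klra4 0.60 and for Klrc1 with Klra4 0.63. These ratios describe the cells and carry no test, since cells of a library are not replicates and deeper cells show more of every gene.

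The NK gate was divided by granzyme transcripts into 448 Gzmc+ cells, Gzmc being typical of type 1 innate lymphoid cells, 1017 Gzma+Gzmc- cells, Gzma being abundant in conventional NK cells, and 1442 cells with neither. Gzmc+ cells had higher Klrb1b and less of most Klra genes. Klrb1b was at 220 to 399 CPM per library in Gzmc+ cells and at 84.2 to 196 CPM in Gzma+Gzmc- cells, with no overlap (log2 difference 1.31, SE 0.11, edgeR quasi-likelihood adjusted p = 2.48e-07, 8 libraries). Klrb1b was the only member of 17 tested called higher, where 1.59% of all genes were. Klra9 was also higher in 8 of 8 libraries (log2 difference 0.94, SE 0.15, edgeR adjusted p = 0.000243) but stayed short of the 2-fold needed for a call, which it reached at 1.06 without the App food allergy library.

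Called lower in Gzmc+ cells were 7 of 17 members, against 1.45% of all genes, each of them in 8 of 8 libraries and 6 of them with ranges that did not overlap. The 17 had passed a filter on low counts, which a member can pass by its level in Gzma+Gzmc- cells alone. Klrg1 and Klra1, with few UMIs in Gzmc+ cells, are counted among the 7. Klra4 was at 28.9 to 160 CPM in Gzmc+ cells and 393 to 614 CPM in Gzma+Gzmc- cells (log2 difference -2.83, SE 0.16, edgeR adjusted p = 2.74e-09). Klra7 was at 12.8 to 105 against 222 to 378 CPM (log2 difference -2.62, SE 0.20, edgeR adjusted p = 4.67e-08), and Klra8 at 5.78 to 146 against 240 to 547 CPM (log2 difference -2.53, SE 0.23, edgeR adjusted p = 6.04e-07). Both activating and inhibitory Ly49 receptors were thus among the genes that were lower. Klri2 was at 28.9 to 119 against 174 to 298 CPM (log2 difference -1.67, SE 0.13), and Klra3 at 19.8 to 89.6 against 91.1 to 133 CPM (log2 difference -1.13, SE 0.19, or -0.98 and under 2-fold without the App chronic colitis library). Klrg1 and Klra1 had 6 and 17 UMIs in all Gzmc+ cells, at most 17.1 and 50.0 CPM in any library, against 30.2 to 71.4 and 42.8 to 101 CPM in Gzma+Gzmc- cells. Klrd1 (log2 difference 0.14, SE 0.08, edgeR adjusted p = 0.343) and Klrk1 (log2 difference -0.09, SE 0.10, edgeR adjusted p = 0.701) missed the threshold, at 644 to 907 and 434 to 691 CPM in Gzmc+ cells. The median log2 difference was -0.68 over the 17 members and 0.00 over all genes tested. Using only hashtag groups with low expression of immediate-early genes such as Fos and Jun, which are known to rise while tissue is processed, left 4 members called lower.

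**Figure D3:**
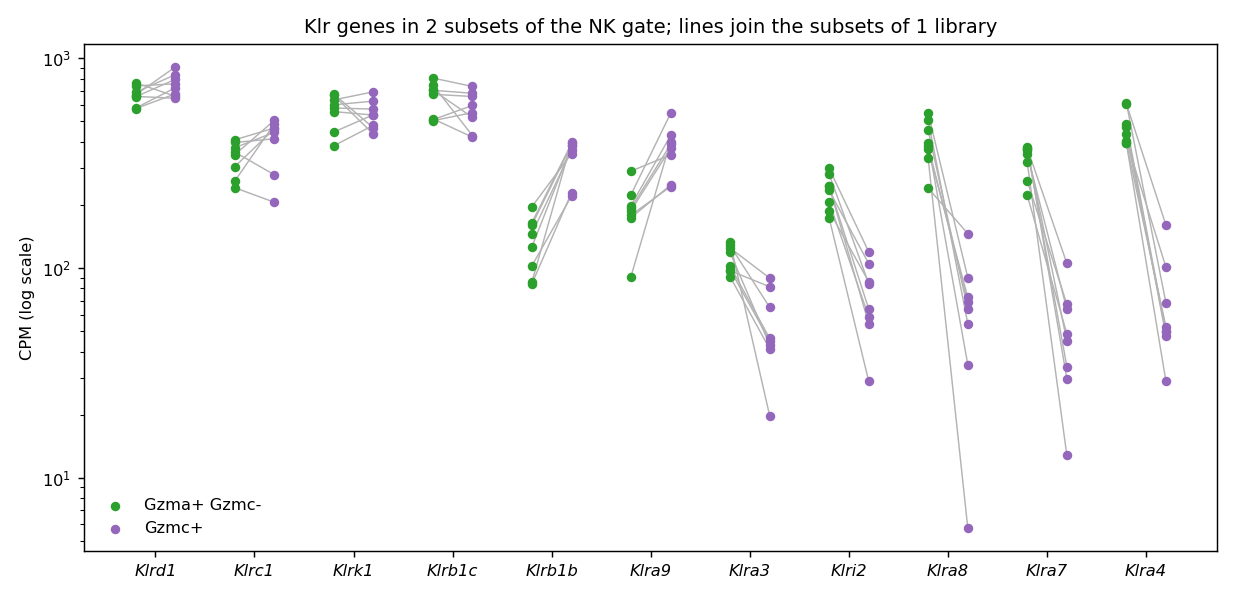
Level of Klr genes (CPM, log axis) in Gzmc+ and in Gzma+Gzmc- cells of the NK gate, with 1 point per library and lines joining the values of the same library. Klra4, Klra7 and Klra8 are lower in Gzmc+ cells in all 8 libraries, Klrb1b is higher, and Klrd1 and Klrk1 overlap.

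CD8 T cells carried mainly the NKG2 receptors and their partner. In CD8 T cells the Klrc genes, Klrd1 and Klrk1 made up 74.2% of the Klr UMIs, against 39.4% in NK cells. Klrd1 was at 145 to 226 CPM per library in CD8 T cells (median 189), Klrc1 at 114 to 150 CPM (143) and Klrk1 at 99.7 to 159 CPM (123). In NK cells Klrd1 was higher by 1.66 on the log2 scale (SE 0.21, edgeR adjusted p = 1.28e-08), Klrc1 by 1.43 (SE 0.18, edgeR adjusted p = 1.81e-08) and Klrk1 by 2.03 (SE 0.19, edgeR adjusted p = 4.76e-12). At the other end stood Klra4, at 0 to 11.5 CPM in CD8 T cells, which was higher in NK cells by 5.98 (SE 0.26, edgeR adjusted p = 1.85e-23), and Klra8, at 0.901 to 11.9 CPM, which was higher by 5.68 (SE 0.30, edgeR adjusted p = 9.38e-21). Klrb1c (13.4 to 38.4 CPM in CD8 T cells) and Klrb1b (2.76 to 17.9 CPM) were higher in NK cells by 4.63 (SE 0.25) and 4.54 (SE 0.28). Klra7 reached 7.21 to 51.6 CPM in CD8 T cells and differed by 2.69 (SE 0.22, edgeR adjusted p = 3.94e-14), less than the activating Klra genes.

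In all, 18 of 21 tested members were called higher in NK than in CD8 T cells, against 3.38% of all genes, and 0 were called lower, against 3.47%. The 21, used for all comparisons between gates, had passed a filter on low counts. A member can pass it by its level in NK cells alone, so these counts describe only the members that could be tested. The 18 were higher in all 8 libraries, and for 17 the ranges did not overlap, Klrg1 being the exception (log2 difference 1.37, SE 0.24, edgeR adjusted p = 8.79e-06). The median log2 difference was 3.17 over the 21 members and -0.01 over all genes. Klra17, at only 1.0 CPM in NK and 2.48 CPM in CD8 T cells pooled, missed the threshold (log2 difference -1.53, SE 0.61, edgeR adjusted p = 0.0625). It was called lower by DESeq2 (adjusted p = 0.0492) and by edgeR without the WT food allergy library (adjusted p = 0.0309). In cells with exactly 1 hashtag the log2 difference was -0.78 (edgeR adjusted p = 0.560). Among 12 tested adaptor and signalling genes, 4 were higher in NK cells: Sh2d1b1 (log2 difference 2.95), Fcer1g (2.57), Tyrobp (2.35) and Syk (1.02). Cd247, the zeta chain shared with the T cell receptor complex, was lower at -1.48. Of 7 tested ligand genes none was called either way.

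The NKG2 genes also separated CD8 from CD4 T cells. Klrc1 was at 8.97 to 39.2 CPM in CD4 T cells, and higher in CD8 T cells by 2.61 on the log2 scale (SE 0.23, edgeR adjusted p = 3.77e-12). Klrd1, at 31.7 to 90.1 CPM in CD4 T cells, was higher in CD8 T cells by 1.91 (SE 0.23, edgeR adjusted p = 2.87e-08) and Klrk1, at 27.9 to 57.3 CPM, by 1.73 (SE 0.22, edgeR adjusted p = 6.55e-08). None of these 3 ranges overlapped with those of CD8 T cells. In all 8 of 21 members were called higher in CD8 T cells, 7 of them in every library and 4 without overlap, against 1.48% of all genes. The call for Klra1 (log2 difference 1.69, SE 0.48, edgeR adjusted p = 0.0181) was lost without the WT control, WT acute colitis or App control library, with edgeR adjusted p between 0.0621 and 0.0914. Klrg1 went the other way, at 11.8 to 32.1 CPM in CD4 and 3.91 to 15.8 CPM in CD8 T cells (log2 difference -1.59, SE 0.26, edgeR adjusted p = 1.13e-05), the 1 member called lower, against 1.47% of all genes.

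Dividing the T cells by single genes, a step chosen after the data were seen, showed where these transcripts lay. In CD4 T cells, Klrg1 was at 76.7 CPM in the 138 cells with Foxp3, the defining gene of regulatory T cells, and at 15.2 CPM in the other 1489. In CD8 T cells the family stood at 641 CPM in the 4472 cells with Ccl5, a chemokine of effector and memory cells, and at 226 CPM in the 230 cells without it. Most CD8 T cells of these brains thus belonged to the part with more Klr transcripts.

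Gamma-delta T cells carried the NKG2 receptors and Klrb1c. Klrc1 was at 64.8 to 144 CPM (median 129), Klrk1 at 73.8 to 166 CPM (104), Klrd1 at 58.4 to 190 CPM (88.2) and Klrb1c at 26.0 to 112 CPM (63.4). Compared with CD4 T cells, Klrc1 was higher by 2.20 on the log2 scale (SE 0.24, edgeR adjusted p = 2.92e-10) and Klrb1c by 1.65 (SE 0.30, edgeR adjusted p = 2.68e-05). Klrd1 differed by 0.86 (SE 0.24, edgeR adjusted p = 0.00596), short of 2-fold. Called higher were 11 of 21 members, 6 of them in every library and 5 without overlap, against 4.37% of all genes, and Klrg1 was called lower (log2 difference -3.01, SE 0.40, edgeR adjusted p = 5.78e-08), against 5.42%. The call for Klra4 (log2 difference 2.39, SE 0.89, edgeR adjusted p = 0.0378) was lost without the WT chronic colitis, App control, App chronic colitis or App food allergy library.

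Within the gamma-delta gate, 304 cells without Cd163l1, a scavenger receptor gene of interleukin-17-producing gamma-delta T cells, had 1857 Klr CPM, and the 923 cells with it had 186 CPM, a split likewise chosen after the data were seen. Markers of other cells moved with this split: the 6 NK markers summed to 825 CPM in cells without Cd163l1 and 87.4 CPM in those with it, the 4 B cell markers to 3258 and 692 CPM, and the 3 neutrophil markers to 1767 and 6512 CPM. Their part in the Klr difference was not tested. Klrc1 was at 431 CPM in the former and 11.3 CPM in the latter, Klrd1 at 317 and 25.5, Klrk1 at 291 and 45.2, and Klrb1c at 221 and 17.7 CPM. The summed level also differed between hashtag groups with low and with high immediate-early gene expression, with medians of 1117 and 381 CPM over the 7 libraries that held at least 10 cells of both, and the low set above in all 7. Only 3 members were called higher than in CD4 T cells when the high set was used alone. The part of handling in these values was not tested.

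ILC2 had 1 abundant member, Klrg1, a surface protein used to identify mature ILC2. It was at 57.7 to 111 CPM per library (median 82.5), above the 11.8 to 32.1 CPM of CD4 T cells without overlap (log2 difference 1.87, SE 0.21, edgeR adjusted p = 5.54e-10). A Klrg1 UMI was seen in 17.9% of ILC2, or 10.2% thinned, against 0.3% of B cells. It was the 1 member of 21 called higher than in CD4 T cells, against 5.49% of all genes. Klrb1b was next at 5.57 to 22.6 CPM, with a log2 difference of 0.06 from CD4 T cells (SE 0.45, edgeR adjusted p = 0.939). Called lower were 14 members, against 11.5% of all genes, 8 of them in every library and 3 without overlap. Among them Klrk1 was at 2.09 to 12.5 CPM (log2 difference -2.61, SE 0.33, edgeR adjusted p = 4.85e-09) and Klrd1 at 1.04 to 22.8 CPM. Others of the 14 were low in both gates. Klra1, Klra3, Klra7, Klrb1a and Klri2 were at 0, 0, 0.146, 0.584 and 1.02 CPM in ILC2, pooled. In CD4 T cells these were at 3.42, 1.23, 6.16, 3.42 and 3.97 CPM. The calls for Klri2 and Klra3 were each lost in 5 of the 8 fits that left out a library, and that for Klrb1a without the WT acute colitis library. Gates without B cell and myeloid markers left 8 members called lower, and turned Klrb1a from a log2 difference of -2.48 (SE 0.79) to 4.06 (edgeR adjusted p = 0.225), while the hashtag groups with high immediate-early expression gave 0.0906 for it. The stricter cell calling also left 8 members called lower, and the hashtag groups with low immediate-early expression left 3. Immediate-early genes summed to 13221 CPM in ILC2 and 3914 CPM in CD4 T cells, and their part in these counts was not tested. Of 12 tested adaptor genes 6 were lower as well, and none was higher.

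Myeloid cells carried a small set of members, divided between the cell types that could be named. In plasmacytoid dendritic cells (1076 cells) Klrd1 was at 170 to 369 CPM per library, median 298, above its level in CD8 T cells at the median. Klra17 (Ly49Q), known from these cells, was at 80.2 to 133 CPM. They were seen in 69.2 and 35.2% of these cells, or 35 and 14.5% thinned. In type 1 dendritic cells (1019 cells) Klrk1 led at 53.0 to 124 CPM, followed by Klrd1 at 22.6 to 44.6 CPM and Klrb1b at 20.7 to 44.7 CPM.

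In neutrophils (2620 cells) the summed level was only 34.7 to 73.8 CPM, of which Klra17 gave 16.4 to 33.2 CPM and Klra2 (Ly49B) 7.35 to 49.2 CPM. In monocytes and macrophages (3852 cells) Klra2 was at 14.3 to 65.4 CPM, Klrb1f at 8.37 to 51.7 CPM and Klrd1 at 15.0 to 58.4 CPM, so that the 3 overlapped. Divided by C1qa, a complement gene of macrophages and microglia, after the data were seen, these cells had 51.7 CPM of Klra2 with C1qa and 23.1 CPM without, whereas Klrb1f was at 3.44 CPM with and 39.4 CPM without. Mast cells and basophils had 12.3 to 51.3 CPM in sum, overlapping with B cells. The rest of the gate, 10.7% of all cells where the whole gate was 28.8%, fell in none of these types. It held 4989 of the gate's 16620 Klr UMIs. Pooled, Klrd1 was at 25.3 CPM there, Klra2 at 16.6, Klrb1f at 15.1, Klrk1 at 12.6 and Klra17 at 12.4 CPM.

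**Figure D4:**
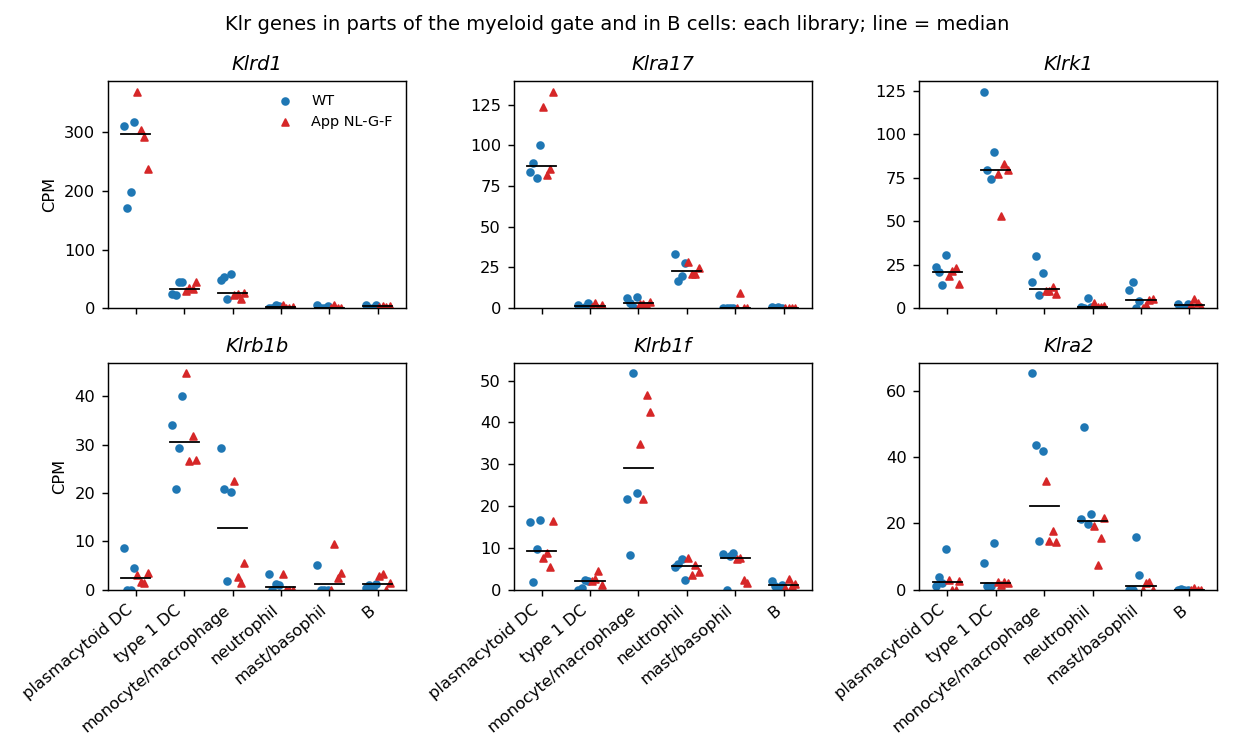
Level of 6 Klr genes (CPM, linear axes from 0) in the named cell types of the myeloid gate and in B cells. Each library is 1 point (circles WT, triangles App NL-G-F), with a line at the median. Klrd1 reaches 170 to 369 CPM in plasmacytoid dendritic cells and Klrk1 reaches 53.0 to 124 CPM in type 1 dendritic cells.

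Against B cells, 6 of 21 members were called higher in the whole myeloid gate, 5 of them in every library, where 18.6% of all genes were called. They were Klrd1 (log2 difference 4.14, SE 0.31, edgeR adjusted p = 1.46e-16), Klrb1f (3.94, SE 0.34), Klrk1 (3.5, SE 0.31), Klrb1b (3.09, SE 0.47), and Klra2 and Klra17, which had 2 and 4 UMIs in all B cells. Called lower were Klra1 (-5.11, SE 0.55, edgeR adjusted p = 7.52e-11), which B cells held at 1.18 to 9.60 CPM as their highest member, and Klrg1 (-1.08, SE 0.46, edgeR adjusted p = 0.0335), against 11.5% of all genes. The Klrg1 call was lost without the WT acute colitis, WT chronic colitis or App food allergy library, with edgeR adjusted p of 0.061, 0.0639 and 0.0693 in turn.

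The last question was whether the family in NK cells differed with the App genotype or the gut treatment. No member passed the test for either. With 1 library per genotype and treatment, the additive fit took differences between the genotypes in their response to treatment as its spread. A change in 1 genotype only could thus not be tested as such, and it widened that spread. The summed level in WT was 4869 CPM in the control, 4485 with acute colitis, 4032 with chronic colitis and 3869 with food allergy, and in App NL-G-F it was 4852, 4107, 5309 and 4921 CPM in the same order. The 2 controls were alike, with an App to WT ratio of 1.0 (exact 95% interval 0.97 to 1.03), and the ratio was 1.32 (1.27 to 1.36) with chronic colitis and 1.27 (1.23 to 1.31) with food allergy. These intervals cover counting error in 1 library each, and hashtag groups within the WT control library alone ranged from 4868 to 5892 CPM. Hashtag groups with at least 10 NK cells overlapped between genotypes in both treatments. With food allergy they were at 4812 to 6168 CPM in WT and 5141 to 5635 CPM in App NL-G-F. With chronic colitis they were at 3980 to 5818 and 5333 to 6424 CPM. All WT food allergy groups lay above their whole library, which also held 839 cells with several hashtags and 748 with none. Klrk1 was at 653 CPM in the WT control and at 567, 438 and 452 CPM with acute colitis, chronic colitis and allergy, while in App NL-G-F it was at 620, 502, 668 and 615 CPM. The inhibitory Klrc1 was at 452, 398, 311 and 351 CPM in WT and at 503, 344, 446 and 487 CPM in App NL-G-F. Both genes were lower with acute colitis than in control in each genotype, and the genotypes parted in the last pair of treatments, where App was the higher. The WT food allergy library was also the one with the highest share of NK gate cells carrying myeloid markers. The 3 neutrophil markers summed to 15740 CPM in the NK gate of the App acute colitis library, the highest of all, against 431 CPM in the App control, while in WT they were at 87.2 CPM with acute colitis and 325 CPM in the control. The part of other cells in these values was not tested.

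**Figure D5:**
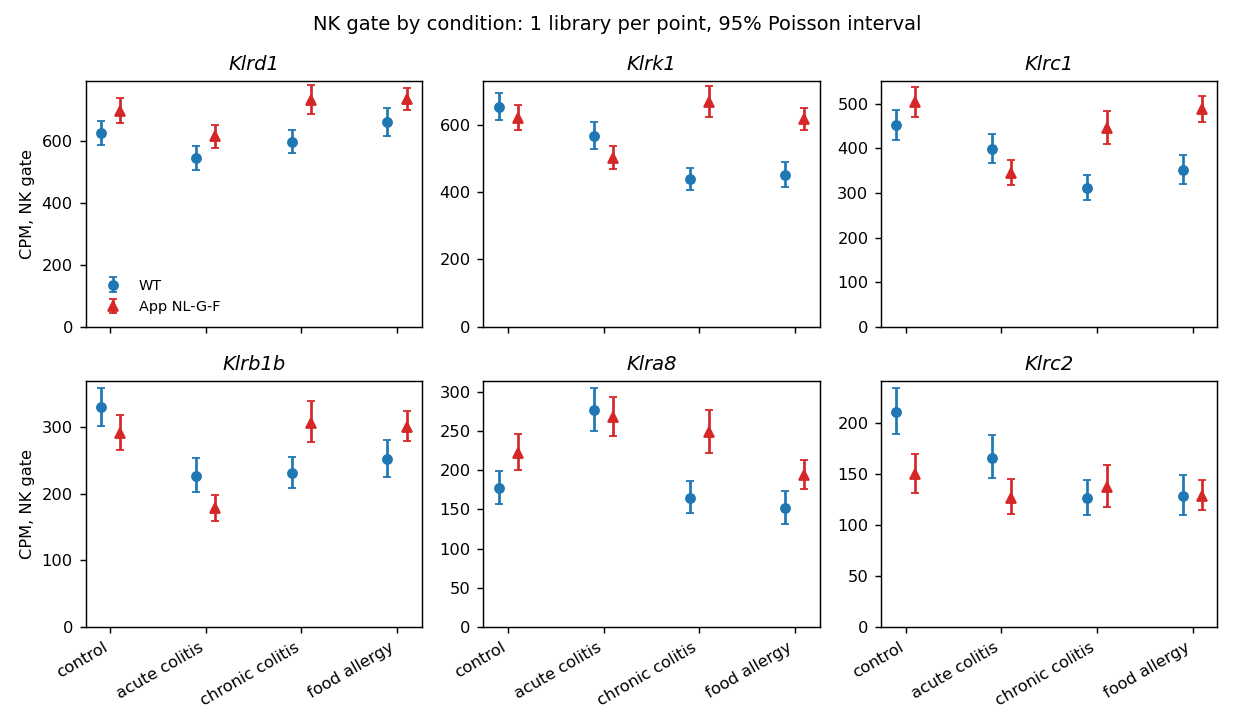
Level of 6 Klr genes in the NK gate (CPM, linear axes from 0) by gut treatment, with 1 point per library (circles WT, triangles App NL-G-F) and exact 95% Poisson intervals. Klrb1b is lowest with acute colitis in both genotypes, at 227 and 178 CPM, with WT chronic colitis close to the former. Klrc2 is highest in the WT control at 211 CPM.

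Of 21 members tested in NK cells, a set that held Klri1 and Klra5 in place of Klra17 and Klra2, 0 were called between App and WT by edgeR with adjustment over 9347 genes, of which 0% were higher and 0.31% lower. At an unadjusted p under 0.05 there were 3 members, and DESeq2 called 0, with 2 at that unadjusted level. The 3 were Klra8 (log2 difference 0.34, SE 0.11, edgeR adjusted p = 0.509), Klrb1a (0.29, SE 0.10, edgeR adjusted p = 0.537) and Klra5 (1.24, SE 0.41, edgeR adjusted p = 0.515). Klra8 was at 177, 276, 165 and 151 CPM in WT and 222, 267, 248 and 194 CPM in App NL-G-F, in the order of treatments given above. The genotypes overlapped, and App was below WT in acute colitis only. In all, 16 members had a positive difference and 5 a negative one, with a median of 0.19 against 0.01 over all genes.

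For the treatments, edgeR called 0 members and 0% of all genes against control in each of the 3 comparisons, and DESeq2 called 0 members. At an unadjusted p under 0.05 there were 2 members for acute colitis, Klra8 (log2 difference 0.59, SE 0.16, edgeR adjusted p = 0.940) and Klrb1b (-0.49, SE 0.17, edgeR adjusted p = 0.940). There were 0 for chronic colitis and 1 for food allergy, Klrc2 (-0.36, SE 0.15, edgeR adjusted p = 0.949), and by DESeq2 2, 0 and 0. Klrb1b was at 329 CPM in the WT control, 227 with acute colitis, 231 with chronic colitis and 252 with food allergy, and at 291, 178, 306 and 300 CPM in App NL-G-F. It was thus lowest with acute colitis in both genotypes, although in WT the value with chronic colitis was close to it. The share of Gzma+Gzmc- cells in the NK gate, the subset with less Klrb1b and more Klra8, was also highest with acute colitis. It was 42.7% against 31.4% in the WT control and 52.2% against 39.0% in the App control. In hashtag groups with high immediate-early expression WT showed no rise, at 42.0% against 42.8%, while App NL-G-F had 52.0% against 45.6%. In the low set it was 27.3% of 11 cells against 14.6% of 164 in WT, and 57.5% against 34.5% in App NL-G-F. The part of the subset shares and of the hashtag mix in the values of both genes was not tested. The median log2 differences over the members were -0.06, 0.09 and -0.10. In simulated data for the genotype comparison, 63% of genes changed by 1 on the log2 scale were recovered and 97% of those changed by 2. Smaller differences between genotypes in single members could thus have been missed. The treatment comparisons, with fewer libraries per group, were not simulated, so these shares do not apply to them.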

How the data were processed

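Brain CD45.2+ cells of 8 libraries, 1 per genotype and gut treatment, had been sequenced with a 5′ single-cell kit, and the authors deposited unfiltered UMI count matrices aligned to mm10. The labels name Cell Ranger 6.1.2, while the matrix headers name version 4. Cells were called in Python 3.11.15 with an order-of-magnitude cutoff (3000 expected cells) and a test against the ambient profile (at least 500 UMIs, 1000 simulations, false discovery rate 0.01), and barcodes under 200 detected genes or over 5% mitochondrial UMIs were dropped. No doublet caller was run; cells with exactly 1 hashtag were an alternative. Gates were set by single transcripts, and the genes defining them were left out of the tests.

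UMIs were summed per library and gate (at least 10 cells) and compared with edgeR's quasi-likelihood test (edgeR 4.0.16, R 4.3.3), library as a block, with Benjamini-Hochberg adjustment over all genes. Genes with low counts were filtered out before each fit, and a gene could pass by its level in 1 group alone. A call needed adjusted p under 0.05 and, between gates, a fold of at least 2. Genotype and treatment were fitted additively in the NK gate over 8 libraries, with no fold limit. Differences between the genotypes in their response to treatment served as the spread of that fit. DESeq2 1.42.0, other cell calls, stricter gates, hashtag sets and leaving out each library were alternatives. Libraries held 25619903 to 54618574 UMIs in kept cells, and a count of 0 allows up to 3 counts. Intervals were exact Poisson or Clopper-Pearson intervals at 95%. The fits were tested on simulated data for the comparisons of NK with CD8 T cells, of the NK subsets and of the genotypes. Promoter sequences came from RefSeq (GRCm38.p6). All Klr genes were named, and those reaching 10 CPM in a gate described with values. The members and lists were chosen with earlier results of these data known.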

Additional observations from a re-analysis of the deposited data

Results flagged for a closer look

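In 3 groups of 8 libraries the highest library stood far from the others by Dixon's criterion, which chance meets in about 1 in 20 groups; 60 groups were examined. Klrc2 in NK cells was at 211 CPM in the WT control library, with the next at 166 CPM and the lowest at 126 CPM. Klrb1a in gamma-delta T cells was at 29.9 CPM in the App food allergy library, with the next at 15.1 CPM and the lowest at 8.12 CPM. Klrk1 in myeloid cells was at 42.4 CPM in the WT acute colitis library, with the next at 23.1 CPM and the lowest at 8.26 CPM.

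In 2 of 146 comparisons the treated library was at least 2-fold above control in 1 genotype and at least 2-fold below in the other. Opposite directions with smaller ratios were not counted. The difference was not tested and rests on 1 library each. Klra1 in gamma-delta T cells had a food allergy to control ratio of 0.225 in WT (4 against 19 UMIs) and of 5.17 in App NL-G-F (26 against 4 UMIs). Klra7 in CD8 T cells had a chronic colitis to control ratio of 2.28 in WT (91 against 63 UMIs, exact interval 1.64 to 3.20) and of 0.359 in App NL-G-F (24 against 82 UMIs, 0.218 to 0.572).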

How the results depend on the processing

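Of 163 alternative values of the counts and summed levels, 132 stayed within 1.5 times the count or within 1 SD, and 31 moved; the cause was not tested. Members lower in NK than CD8 T cells numbered 1 by DESeq2 (0 to 1 leaving out a library). Strict gates gave 2 members higher and 8 lower in ILC2 than CD4 T cells; the order-of-magnitude cutoff alone gave 8 lower there, 5 lower in myeloid than B cells and 2 higher in Gzmc+ cells; exactly 1 hashtag gave 2 higher in Gzmc+ cells. No filter on low counts gave 1 lower in myeloid cells. The low immediate-early set gave 0 lower in gamma-delta T, 3 lower in ILC2, 3 higher and 1 lower in myeloid, and 5 called in Gzmc+ cells, of which 4 lower. The high set gave 3 higher in gamma-delta T, 1 lower in myeloid and 2 higher in Gzmc+ cells. Leaving out a library gave 1 to 2 lower in myeloid and 1 to 2 higher in Gzmc+ cells, 2 without App food allergy.

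The median summed CPM of NK cells was 5745 with strict gates, 3888 with the cutoff alone, 5379 with exactly 1 hashtag, 5510 in the low and 5321 in the high set. CD8 T cells had 706 CPM with 1 hashtag and 901 in the high set, CD4 T cells 137 with strict gates and 127 in the low set, gamma-delta T cells 1117 in the low set, ILC2 166 with the cutoff alone, and B cells 11.3 with 1 hashtag, 11.8 in the low and 9.21 in the high set. Klrb1a in ILC2 against CD4 T cells turned from a log2 difference of -2.48 to 4.06 with strict gates (edgeR adjusted p = 0.225) and 0.0906 in the high set.

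Gates and NK subsets were paired by library, and genotypes by treatment, in the fits themselves. Each condition had 1 library, so no replicate numbers paired the conditions further.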
